A study of Mus musculus with 10 samples.

Results

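Messenger RNA of muscle was compared with messenger RNA of white adipose tissue, one tissue that burns fuel and one that stores it, both responsive to insulin and both of mesodermal origin. The tissues came from adult female C57BL/6 mice. Muscle and white adipose were part of a set of 5 tissues, with pancreas, liver and hypothalamus, each hybridised once to chip A and once to chip B, giving 10 one-colour arrays. Trizol RNA was turned into biotin-labelled cRNA from 10 µg of total RNA, following Affymetrix's manual of 2001. The labels do not say which muscle or fat depot was taken, the exact age, or whether animals were pooled. The arrays called white adipose here are so named in their source field, which set the group, while their titles read preconfluent. No treatment or genotype separates the groups.

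A probe set was a member of the comparison if it was not a control and its scaled intensity exceeded, in at least 1 of the 2 tissues, the size of that array's 1st percentile. That size is called the bound below. On chip A the bound was 1065 for muscle and 390.1 for white adipose, and on chip B 1640 and 918. Of 13057 probe sets, 3577 were members (27.4%). Chip A held 2283 members among 6523 probe sets, and chip B 1294 among 6534. Just inside the threshold lay Ttc17, at 919 in white adipose on chip B, and just outside lay Prune1, at 1065.32 in muscle against a bound of 1065.44. Every value is a scaled intensity in arbitrary units. Values below 0 were already in the deposited intensities, and the sources used here do not state how they arose. Each tissue has 1 array per chip, so there are no replicates, no errors and no tests. All differences are between these arrays, and the number of arrays limits their precision.

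Skeletal muscle shortens by sliding actin and myosin filaments, which calcium released from the sarcoplasmic reticulum sets in motion through troponin. It pays for contraction from creatine phosphate, glycogen and the oxidation of fatty acids. White adipose tissue takes up fatty acids and glucose, makes and stores triglyceride, releases fatty acids by lipolysis when catecholamines act on it, and secretes hormones such as adiponectin and leptin. Both tissues move the glucose carrier Slc2a4 to the cell surface in response to insulin.

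A fold was taken as the higher value over the lower value, or over the lower tissue's bound where the value was under it, which is written "at least". A probe set was called where this fold was 4 or more and the higher value exceeded its own bound. Among the members, 1481 were above the bound in both tissues, 334 in muscle alone and 1762 in white adipose alone. The highest member value was 176723 in muscle, that of a Ckm probe set on chip B, and 35559 in white adipose, also on chip B. Of the 1481, 880 (59.4%) lay within 2-fold of each other. Muscle was called higher at 227 probe sets (1.74% of all 13057) and white adipose at 116 (0.888%). Chip A gave 111 of the muscle calls (1.7% of its probe sets) and 59 of the adipose calls (0.904%), and chip B gave 116 (1.78%) and 57 (0.872%). The fold was measured on both sides at 95 and 40 of these, and set against a bound at 132 and 76. Taken by gene, 122 of 6123 genes were called in muscle (1.99%) and 63 in white adipose (1.03%), and the counts of listed genes below are to be read against these shares. In bulk tissue, fewer cells of a type and less RNA per cell cannot be told apart.

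The unequal bounds bear on these counts. A call against the bound needed, for chips A and B in turn, a level of 1560 and 3673 in muscle, but 4262 and 6558 in white adipose, and 80 of the muscle calls lay under the level asked of adipose. With the larger bound of a chip used for both arrays, 147 muscle calls and 116 adipose calls were left. Muscle values lay as far below 0 as such a call lies above it at 33 probe sets, against 132 muscle calls of that kind, and adipose values at 0 against 76. The split also moved with scaling. Muscle held 66.2% of all calls as reported, 51.0% after scaling to the 75th percentile, 45.1% after quantile normalization, 41.3% after scaling to the hybridisation spikes and 39.8% after centring on the probe sets above both bounds. The median log2 ratio of muscle over adipose, over the probe sets above the larger bound in both tissues, was 0.11 for chip A and 0.05 for chip B as reported. It was -0.13 and -0.23 with the 75th percentile, -0.27 and -0.62 with the spikes and -0.51 and -0.34 with the centring.

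The tissue labels were checked against the genes that define each tissue. Skeletal actin Acta1 read 73140 in muscle and 1063 in white adipose, and the muscle creatine kinase Ckm read 159172 and 2301. The fat cell hormones adiponectin (Adipoq) and resistin (Retn) read 988 and 825 in muscle, both under the bound, against 16860 and 15100 in white adipose. Adipoq and Retn were at most 168 and 1379 in pancreas, liver and hypothalamus. Both hormones, each measured by 1 probe set on chip A, were thus high only on the chip A array whose source label is white adipose. Leptin (Lep) read 2871 in white adipose and -92 in muscle, at least 2.69-fold, and the fat cell regulator Pparg read 1675 and -90, at least 1.57-fold, neither enough for a call.

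The 4 genes that mark this comparison divided as follows. Fabp3, which carries fatty acids in the muscle cell, read 21853 in muscle and -137 in white adipose, at least 56.0-fold. Fabp4, its counterpart in fat cells, read 896 and 17497, at least 16.4-fold the other way. Acly, which makes cytosolic acetyl-CoA from citrate for fatty acid synthesis, read 1352 and 15983, 11.8-fold higher in adipose, and its probe set on chip B read 240 and 10780. Lpl, the lipase that frees fatty acids from circulating triglyceride, read 19582 in muscle and 10295 in white adipose, 1.90-fold, and was called in neither. A second Lpl probe set was under the bound in both tissues, at -192 and -53. In the other tissues Lpl was at most 1775.

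The contractile apparatus had the largest median log2 ratio of the lists, in either direction. Of its 28 measured genes, 21 were called in muscle and 0 in white adipose, and the median log2 ratio was 3.40 with both values raised to the larger bound, against 0 over all 6123 genes. Actn3, the fast-fibre crosslinker of the Z disc, read 91639 in muscle and -320 in white adipose, at least 235-fold. The fast troponin subunits followed, with Tnnt3 at 76321 and -45, Tnnc2 at 71596 and 131, and Tnni2 at 60133 and -15. The light chains of fast myosin read 62209 and 618 for Myl1, a measured 101-fold, and 46101 and 25 for Mylpf. Myh4, the heavy chain of the fastest fibres, read 35445 and 207, at least 38.6-fold.

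Contractile genes typical of slow fibres and heart were called in the muscle arrays as well. Myl3 read 36990 in muscle against -853 in adipose, Tnnc1 21935 against -279, and Myl2 19487 against 50. The cardiac actin Actc1 read 20970 against 1800, a measured 11.7-fold, at a probe set with the name suffix of a family design. Such a probe set can bind messages of related genes, and how far Acta1 contributes was not tested. Des, the intermediate filament that ties myofibrils together, read 8970 against 436, 20.6-fold. The scaffold Myoz1 of the Z disc read 80571 against 917, at least 87.7-fold. Among the 7 genes not called, the actin-capping Capza2 read 1227 and 627. Tpm1, a tropomyosin also made outside striated muscle, read 801 and 1290, the 1 gene of the list on the adipose side as reported, joined by the capping subunit Capzb with the spike scaling.

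Calcium handling split between a few high genes and many that were not seen. Of 13 measured genes, 5 were called in muscle, 0 in adipose, and 7 were level once raised to the larger bound, so the median was 0. Atp2a1, the calcium pump of fast fibres, read 126228 in muscle and 226 in white adipose, at least 137-fold, and its slow-fibre and cardiac relative Atp2a2 read 11834 and 605, 19.6-fold. Parvalbumin (Pvalb), a calcium buffer of fast fibres, read 91876 and 274. The release channel Ryr1 read 22240 and 39, and Cacna1s, the voltage sensor that opens it, 3748 and 60, a call that was lost with the larger bound. The immunophilin Fkbp1a, which binds the release channel but is found in most cells, was higher in white adipose at 8046 against 2754.

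Genes that buffer energy and oxygen were high in muscle. Myoglobin (Mb) read 82465 in muscle and 474 in white adipose, at least 89.8-fold, while its other probe set was above the bound in neither tissue. The other probe set of Ckm read 176723 and 316. Adssl1, the muscle enzyme of the purine nucleotide cycle, read 4684 and 27. The brain-type creatine kinase Ckb was under the bound in muscle, at 263, and read 1752 in white adipose. In this list of 9 genes, 4 were called in muscle and 0 in adipose.

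Glycogen genes were called in muscle for 5 of 13 and in adipose for 0. Pygm, the muscle phosphorylase that breaks glycogen down, read 72742 in muscle and 182 in white adipose, at least 186-fold. The subunits of its activating kinase read 5315 and 200 for Phka1, and 1952 and 97 for Phkg1. With the larger bound used for both arrays neither was called. The muscle glycogen synthase Gys1 read 7980 and 2086, 3.83-fold, and the primer glycogenin Gyg 6326 and 1642, 3.85-fold, both just short of a call. The branching enzyme Gbe1 lay the other way, at 2024 in muscle and 4081 in adipose, as did the brain-type phosphorylase Pygb, at 140 and 3272.

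Glycolysis was called in muscle for part of its genes. Of 17 measured genes, 5 were called in muscle and 0 in adipose, with a median log2 ratio of 0.28, which was 0 under the spike scaling and under centring above both bounds. Eno3, the muscle enolase, stood apart from the others at 87536 in muscle and -240 in white adipose, at least 95.3-fold. The remaining calls were measured on both sides and smaller. Pkm read 54968 and 8271, Ldhb 9399 and 1438, Aldoa 149731 and 26292, and Gapdh 89568 and 21488, a ratio of 4.17. Gapdh lost its call under each of 4 scalings, to the 75th percentile, by quantiles, to the spikes and by centring above both bounds. It was not alone, since over the named genes of all lists these scalings removed the call of 3, 5, 6 and 8 genes, in that order. The hexokinases read 7813 in muscle and 4460 in white adipose for the insulin-responsive Hk2, and 2582 and 3596 for Hk1.

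Most genes of the citric acid cycle and the respiratory chain were not called, and their ratios were smaller than those of the contractile genes. Of the 17 genes of the cycle, 11 were higher in muscle and 2 in adipose, while 2 were called, both in muscle. The median log2 ratio was 0.52 as reported but 0.29 with the 75th percentile, 0.14 with the spikes and 0 with centring above both bounds, where 8 genes lay on the muscle side and 5 on the adipose side. Got2, which works with the cycle in the malate-aspartate shuttle, read 34727 and 2575, 13.5-fold, and Idh2, the mitochondrial isocitrate dehydrogenase linked to NADPH, read 6147 and 1118, 5.50-fold. Of 56 genes of the respiratory chain, ATP synthase and their carriers, 43 were higher in muscle and 5 in adipose. Over all genes, 880 were higher in muscle (14.4%) and 643 in adipose (10.5%), and the rest were level at the larger bound. Of 984 genes above both bounds, 705 were higher in muscle and 279 in adipose, with a median log2 ratio of 0.58. This selection itself leans to muscle, since the lower adipose bound admits low adipose values while low muscle values are left out. Probe sets above both bounds had medians of 0.62 for chip A and 0.39 for chip B. Requiring the larger bound in both tissues reduced these medians to 0.11 and 0.05. Among genes of the chain above both bounds, 42 of 46 were higher in muscle with a median of 1.19. Among those of the cycle it was 10 of 12 with a median of 1.22, and both counts carry the same lean. Of the 56 genes of the chain, 5 were called in muscle and 3 in adipose, both above the shares of 1.99% and 1.03% over all genes. The median log2 ratio of the list was 0.94 as reported, and it was 0.70 with the 75th percentile, 0.62 by quantiles, 0.53 with the spikes and 0.32 with centring above both bounds. The genes on the muscle side then numbered between 36 and 42 of the 56.

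The counts by complex are given as a description, under the scaling as reported. Complex I had 14 of 18 genes higher in muscle with a median log2 ratio of 1.17, complex III 8 of 8 with 0.73, complex IV 9 of 11 with 1.26, and ATP synthase 9 of 12 with 0.80. Complex II had 1 of 3, Sdhb, at 14480 and 4005. Strongly measured members included Cox4i1 at 46801 in muscle and 18236 in white adipose, Ndufa1 at 25973 and 10852, and cytochrome c (Cycs) at 20888 and 8548. After Cox6a2 and Cox8b, described next, the largest ratio was that of Atp5g1, a gene of the membrane ring of ATP synthase, at 20759 and 2067, 10.04-fold.

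The 3 genes of the chain called in white adipose were each the counterpart of a gene called in muscle. Cytochrome oxidase has a heart and muscle form and a widespread form of the small subunits 6a and 8. Cox6a2, the muscle form, read 25893 in muscle and -555 in white adipose, and 21755 and -434 at its probe set on chip A. Cox6a1 read 730 in muscle, under the bound, and 12582 in white adipose, at least 11.8-fold. The muscle form Cox8b read 14643 and 883, 16.6-fold, and Cox8a read 2132 and 13384, 6.28-fold the other way. In pancreas, liver and hypothalamus Cox8b was at most -36, and Cox8a was 6870, 9152 and 11148. The carriers that exchange ADP for ATP across the inner membrane divided in the same manner, with Slc25a4 at 22550 and 3043, 7.41-fold, and 16586 and 1830 on chip A, and Slc25a5 at 1153 and 4806, 4.17-fold higher in adipose. Among 3 probe sets of Slc25a5, 2 were called in adipose and the other reached at least 3.14-fold. Cox7a2, the widespread form of subunit 7a, did not divide in this manner. It read 12138 in muscle and 9026 in white adipose and was not called, and with the spike scaling it lay on the adipose side. Apart from that of Cox8a, these probe sets carry the name suffix of a family design, which can bind messages of related genes, and how far relatives contribute was not tested.

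Isocitrate dehydrogenase gave calls in both directions too. Idh2 was higher in muscle, as above, while its cytosolic relative Idh1 read 419 in muscle and 4593 in white adipose, at least 4.31-fold. With centring above both bounds the Idh2 call was lost. The smooth muscle actin Acta2 read 2872 and 6581 and was not called. Of the lactate dehydrogenases Ldhb was called in muscle, and Ldha, also higher there, was not, at 36558 and 15251, 2.40-fold. Since levels of different probe sets cannot be set against each other, these values show the ratio between tissues for each gene and not which form prevails within a tissue.

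Promoters of genes from both sides of the comparison are printed to show the sequence beside the values, each with the 250 bases before the annotated start, 5′ to 3′ on the gene's strand, from RefSeq on GRCm38.p6. Capitals mark the E-box CAGCTG that myogenic factors can bind, the CArG box bound by serum response factor, and CCAAT or its reverse complement ATTGG. Acta1 and Pygm are muscle genes, Cox8b and Cox8a are the pair of subunit genes called in opposite tissues, and Adipoq stands for the fat cell.
Acta1, chr8:123894776-123895025, minus strand: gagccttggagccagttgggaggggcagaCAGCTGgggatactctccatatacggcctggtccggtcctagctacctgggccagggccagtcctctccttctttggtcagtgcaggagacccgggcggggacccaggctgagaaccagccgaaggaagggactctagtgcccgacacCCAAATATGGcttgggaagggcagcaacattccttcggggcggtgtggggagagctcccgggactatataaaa
Pygm, chr19:6384158-6384407, plus strand: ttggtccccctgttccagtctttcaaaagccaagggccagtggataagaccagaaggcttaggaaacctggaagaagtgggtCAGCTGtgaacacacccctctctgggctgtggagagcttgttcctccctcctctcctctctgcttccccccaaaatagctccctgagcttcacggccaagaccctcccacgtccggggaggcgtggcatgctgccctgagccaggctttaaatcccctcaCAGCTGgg
Cox8b, chr7:140900447-140900696, minus strand: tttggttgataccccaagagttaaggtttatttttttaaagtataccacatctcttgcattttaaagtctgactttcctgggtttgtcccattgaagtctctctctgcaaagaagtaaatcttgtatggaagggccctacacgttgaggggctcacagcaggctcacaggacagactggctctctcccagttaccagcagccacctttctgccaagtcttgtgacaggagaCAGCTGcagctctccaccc
Cox8a, chr19:7217617-7217866, minus strand: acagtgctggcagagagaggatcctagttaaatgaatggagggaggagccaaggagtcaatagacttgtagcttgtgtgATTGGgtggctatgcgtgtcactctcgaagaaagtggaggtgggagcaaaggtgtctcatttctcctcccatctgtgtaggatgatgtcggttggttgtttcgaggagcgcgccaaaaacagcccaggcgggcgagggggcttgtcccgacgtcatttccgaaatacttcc
Adipoq, chr16:23146286-23146535, plus strand: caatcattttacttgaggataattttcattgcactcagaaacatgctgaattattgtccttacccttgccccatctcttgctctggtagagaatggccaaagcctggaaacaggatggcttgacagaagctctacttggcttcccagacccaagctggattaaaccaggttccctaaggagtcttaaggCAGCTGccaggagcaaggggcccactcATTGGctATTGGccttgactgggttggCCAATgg
The Acta1 window holds CAGCTG at position -221 and a CArG box at -73, counted back from the start. Pygm holds CAGCTG at -168 and -8, Cox8b at -19 and Adipoq at -61, so the motif is on both sides of the comparison. Cox8a holds ATTGG at -171, and Adipoq holds CCAAT or ATTGG at -34, -27 and -7.

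Over all genes called, 99 of the 122 muscle genes had 132 promoter entries and 51 of the 63 adipose genes had 72. CAGCTG, which reads the same on both strands, was in 22.7% of the muscle promoters and 18.1% of the adipose promoters, against 12.1% of the 6258 promoters of genes on the arrays and 13% of all 32851. The CArG box, searched on both strands, was in 4.55%, 1.39%, 1.47% and 1.47% in that order, and the MEF2 box in 4.55%, 1.39%, 1.65% and 2.92%. CCAAT on either strand was in 31.1%, 45.8%, 34.7% and 33.8%, and the GC box GGGCGG in 51.5%, 36.1%, 52.4% and 32.7%. The muscle shares of the CArG and MEF2 boxes rest on 6 promoters each. These are descriptions of letters in a window, and a match is not a binding site.

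Uptake and binding of fatty acids went both ways by gene. Of 12 measured genes, 2 were called in muscle, Fabp3 and Got2, which has also been described as a fatty acid binding protein of the plasma membrane. In white adipose 3 were called. They were Fabp4, Fabp5 at 627 and 7899, and Dbi, which binds acyl-CoA, at 4696 in muscle and 20491 in adipose. The translocase Cd36 read 5435 in muscle and 19888 in white adipose, 3.66-fold, and the transporter Slc27a1 1413 and 5396, 3.82-fold, both just short of a call as reported. The very low density lipoprotein receptor Vldlr was higher in muscle, at 1757 and 602. The list's median log2 ratio was 0.04, and it was -0.07 with the spike scaling and 0.34 by quantiles.

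Fatty acid oxidation, taken for mitochondria and peroxisomes together, did not lean to muscle at the level of these messages. Of 22 measured genes, 5 were higher in muscle and 12 in white adipose, 1 was called, in adipose, and the median log2 ratio was -0.37. Other scalings gave medians of -0.48 with centring above the larger bound, -0.60 with the 75th percentile, -0.68 by quantiles, -0.75 with the spikes and -0.98 with centring above both bounds. Under the 5 other scalings 4 or 5 genes were on the muscle side and between 12 and 14 on the adipose side. Those higher in muscle included the carnitine acetyltransferase Crat, at 4706 and 2870, Hadha, a subunit of the trifunctional protein for long chains, at 6777 and 3721, and the carnitine carrier Slc25a20 at 2049 and 906. Those higher in adipose included the medium-chain dehydrogenase Acadm at 2704 and 5102, Hadh at 3096 and 6522, and Echs1 at 1320 and 3298. The call was catalase (Cat), a peroxisomal enzyme, at 841 and 5381, at least 5.05-fold. Abcd2, Abcd3 and Hsd17b4, also of peroxisomes, lay on the adipose side too, so that side is not mitochondrial alone. The liver-type carnitine palmitoyltransferase Cpt1a was under the bound in muscle, at -150, and read 570 in adipose. The muscle form Cpt1b was not among the 22 measured genes. Breakdown of branched-chain amino acids, another mitochondrial pathway, had 9 of 12 genes higher in adipose and 0 in muscle, with no call, and the same counts under the 5 other scalings. Among them Mccc1 read 875 in muscle and 2556 in adipose, and Bcat2 read 4267 and 6032.

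The list of fatty acid synthesis, which includes NADPH supply and the pentose phosphate path, was one-sided to white adipose. Of 17 measured genes, 7 were called in adipose and 0 in muscle, 13 were higher in adipose and 0 in muscle, and the median log2 ratio was -1.88. Fatty acid synthase (Fasn) read 903 in muscle and 22760 in white adipose, at least 13.9-fold. Pgd, which makes NADPH in the pentose phosphate path, read -122 and 8102, and the malic enzyme Me1, which makes it from malate, 783 and 7076, both called. Tkt, of the branch of that path that makes no NADPH, read -730 and 14746. Thrsp, a regulator of lipogenesis, read 547 and 13527. The citrate carrier Slc25a1, which exports the substrate of Acly, read 4475 and 17227, 3.85-fold, and the desaturase Scd1 read 6019 and 13928, 2.31-fold. Liver, the other lipogenic tissue of the set, read 6220 for Fasn, 3020 for Acly and 1108 for Me1, each lower than white adipose.

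Genes that build, coat and break down triglyceride stores were called in adipose for 6 of 15 and in muscle for 0, with a median log2 ratio of -1.64. Hormone-sensitive lipase (Lipe) read 710 in muscle and 17410 in white adipose, at least 16.3-fold. Cidec, which enlarges lipid droplets, read -218 and 20109. Dgat2, which adds the last acyl chain to triglyceride, read 2536 and 26386, 10.4-fold, and its unrelated partner Dgat1 540 and 3316. Monoglyceride lipase (Mgll) read 1205 and 11343, 9.42-fold. Bscl2 (seipin), at 288 and 4556, and Plin2, at -275 and 4974, coat or shape the droplet. Glycerol-3-phosphate dehydrogenase (Gpd1) was nearly shared, at 14199 and 22883.

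A list of fat cell hormones and other fat cell products was called on the adipose side as well. Of 21 measured genes, 6 were called in white adipose and 0 in muscle, with a median log2 ratio of -1.24. Beside Adipoq and Retn these were haptoglobin (Hp), at 237 in muscle and 22593 in adipose, and apolipoprotein E (Apoe), at -1339 and 16188. The remaining calls of the list, Nnat, at -48 and 5202, and Adig, at -330 and 4700, code for membrane proteins and are not hormones. The retinol carrier Rbp4 read 1917 and 7461, 3.89-fold. Hp and Apoe were also high in liver, at 27853 and 18280.

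The insulin pathway and the adrenergic pathway, through which both tissues are regulated, held no call in either direction among 29 and 22 measured genes. At the shares called over all genes, lists of this size would hold fewer than 1 call, and 20 and 13 of these genes were level at the larger bound, so the count says little about the pathways. The glucose carrier Slc2a4 read 4905 in muscle and 3645 in white adipose at one probe set and 2329 and 4800 at another, so its order depended on the probe set, and with the spike scaling the first also lay on the adipose side. Rhoq, a small GTPase of the glucose carrier pathway, read 6161 and 3249. Eif4ebp1, a repressor of translation that insulin relieves, read 4314 and 7451. The stimulatory G protein Gnas read 27422 and 12157, and the catalytic subunit Prkaca of protein kinase A read 1643 and 2623.

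Most transcription factors were not resolved by these arrays, with 18 of 25 of the muscle list and 20 of 27 of the fat cell list level at the larger bound. Of the 25 factors and partners of muscle, 2 were called in muscle, Mef2c at 3984 and 3, at least 10.2-fold, and the LIM protein Fhl1 at 15489 and 2841, 5.45-fold. With the larger bound for both arrays the Mef2c call was lost. Of 27 factors of fat cells, 0 were called in adipose and 1 in muscle, the nuclear receptor Nr4a1, an early response gene, at 9316 and 1120. Cebpa, a driver of fat cell differentiation, read -367 and 2224. Id3, an inhibitor of basic helix-loop-helix factors such as the myogenic ones, was higher in adipose, at 750 and 2867. At the muscle membrane, Atp1b1, a subunit of the sodium pump, read 8924 and 1172, the 1 call among 25 genes.

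Messages of connective tissue and of immune cells were taken as separate lists. Of 60 genes of fibroblasts and matrix, 7 were called in adipose and 1 in muscle, 31 were higher in adipose and 7 in muscle, 22 were level at the larger bound, and the median log2 ratio was -0.29. With the spike scaling the median was -0.72, with 36 genes on the adipose side and 3 on the muscle side, and with centring above both bounds -0.68, with 38 and 3. Collagens of the basement membrane and of the sheath around fat cells were among the calls, with Col4a1 at 969 in muscle and 8245 in adipose, and Col6a1 at 2688 and 15596. The fibrillar collagen Col3a1 read 4176 and 22306, 5.34-fold, and the matrix protein Sparc 4041 and 19905. A second Col3a1 probe set was level at the larger bound. Decorin (Dcn), a proteoglycan of fibroblasts, was shared, at 23958 and 21335. Fibromodulin (Fmod), a proteoglycan of tendon and other dense collagen, was the muscle call, at 6535 and 250, at least 16.8-fold.

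Antigen presentation had 4 of 26 genes called in adipose and 0 in muscle. The light chain B2m of class I molecules read 1602 in muscle and 20742 in white adipose, at least 12.7-fold. The class II chaperone Cd74 read 374 and 14206, at least 8.66-fold, and the class II chain H2-Aa 1112 and 5685, 5.11-fold. The 4 other H2-Aa probe sets lay on the adipose side too, but 0 of them were called. Macrophage markers had 12 of 30 genes higher in adipose and 2 in muscle, with 1 called, the protease Ctsb at 2533 and 10716. A second Ctsb probe set was above the bound in neither tissue. The complement genes C1qa, C1qb and C1qc read between 4473 and 4781 in adipose and between 217 and 1062 in muscle, where they were under the bound. Of 24 lymphocyte markers 1 was called, the immunoglobulin chain Ighm, at 449 and 9889. Of the 4 other Ighm probe sets, 1 was a member, on the adipose side, and 0 were called. The part that resident or trapped immune cells have in the storage genes was not tested.

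Markers of other cells that the tissues could hold were compared as whole lists. Endothelial and mural markers had 6 of 23 genes higher in adipose and 2 in muscle, and their 1 call was Des, which muscle fibres also make. Of 19 epithelial and mesothelial markers 3 were higher in adipose, among them Upk3b at 31 in muscle and 2585 in adipose. Of 13 nerve markers 1 was higher in adipose, Pmp22 at 1236 and 4802. Of 8 genes typical of brown fat, the calls were Fabp3 and Cox8b, both in muscle, and the defining Ucp1 and Cidea were under the bound in both tissues, at -121 and 10 in muscle and 121 and 185 in adipose. Haemoglobin was present in both, with Hba-a1 at 23971 and 21576 and Hbb-b2 at 9474 and 11043.

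Genes known from liver and pancreas were not evenly low. Albumin (Alb) read 8226 in muscle and 183 in white adipose, at least 8.96-fold, against 18122 in liver and 26266 in pancreas. Apolipoprotein Apoa2 read 4023 and 542, against 25926 in liver. Cyp2e1, a cytochrome P450 abundant in liver, read 1110 in muscle and 17182 in white adipose, 15.5-fold, against 16351 in liver. The remaining 12 of the 15 genes in this list were called in neither tissue. The source of the Alb signal in muscle was not tested.

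Ribosomal protein genes, used as a housekeeping list, had 24 of 39 higher in adipose, 8 in muscle and 1 called, Rpl3 at 2170 and 9904. Their median log2 ratio was -0.10 as reported and lay between -0.19 and -0.69 under the 5 other scalings.

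Some of the named genes belong to none of the lists, and they are not a ranking of all such genes. In muscle, Eef1a2, the elongation factor of muscle and neurons, read 31556 against 22 in adipose, and 10502 in hypothalamus. Ndrg2 read 52192 and 5031, 10.4-fold, and the corepressor Tle5 15612 and 1101. In white adipose, the glutamine carrier Slc1a5 read 148 in muscle and 12507, at least 11.7-fold, the tubulin Tuba1a 1878 and 17947, gamma-synuclein (Sncg) 1767 and 14185, and the mitochondrial dicarboxylate carrier Slc25a10 1166 and 7445.

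The other tissues of the set show how far these differences belong to 1 tissue. Of the 227 probe sets called in muscle, 199 (87.7%) were highest in muscle among the 5 tissues, and for 140 none of the other 3 tissues came within 4-fold. Of the 116 called in white adipose, 76 (65.5%) were highest there and 24 were highest in liver. Liver came within 4-fold for 64 of the 116, and 35 had no other tissue within 4-fold. Across probe sets above the larger bound of both arrays, the Pearson correlation of log2 intensity between muscle and adipose was 0.55 on chip A (616 probe sets) and 0.52 on chip B (410). Between muscle and hypothalamus it was 0.57 (566) and 0.47 (375), and between liver and adipose 0.68 on each chip (1521 and 712). The probe sets differ between pairs, since the higher muscle bound leaves fewer. These are descriptions over probe sets that share arrays, and probe sets are not replicates.

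Probe sets of the same gene were compared with each other. Among called genes, 24 had at least 2 called probe sets, in each case in the same direction. Of 55 called genes with other probe sets, 40 had another that was a member. For these 40, 43 of 47 other members lay on the same side and 3 on neither. The 1 on the opposite side belonged to 1810058I24Rik. Other probe sets above the bound in neither tissue are not in these counts, so they do not measure agreement over all probe sets. Close to the threshold, the fold was 4.03 for Hspb2 in muscle and 4.04 for Myh9 in adipose just inside, and 3.999 for the chip B probe set of Cryab and 3.94 for Gpx4 just outside. Of the 164 listed genes higher in muscle, 32 lay on the adipose side under at least 1 of the 5 other scalings; they include Dcn, Cs, Mdh1 and Capzb, and none had a log2 ratio above the 0.95 of Atp5b. Apart from quantile normalization, each of these scalings moves the ratios of both chips towards adipose. For them the lack of changes in the other direction says nothing about stability. Quantile normalization moved lists in both directions. The median log2 ratio went from 0.87 to 1.65 for glycogen and from -0.37 to -0.68 for fatty acid oxidation.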

How the data were processed

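Messenger RNA of muscle and white adipose was measured on 4 of the 10 arrays of the series, 1 per tissue on each of 2 Affymetrix chips. The deposited values are intensities, whole numbers on a linear scale with between 18.7% and 36.7% of an array below 0. The authors had brought each array to a trimmed mean near 501 before they deposited the intensity values, as the values themselves show. The software is not given in the sources used here.

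Controls (61 per chip) were left out. Arrays were put on one scale per chip through their means after trimming 2% at each end, which multiplied the values used here by 1.00 to 1.005. Folds and calls were then made as defined in the results. Depth is not defined for arrays, and precision is limited by their number. A gene was represented by the probe set whose mean log2 value over muscle and white adipose ranked highest within its chip. Values were first raised to the larger bound of the chip, and ties went to the higher value relative to that bound. Names came from platform annotation, updated through RefSeq's table for GRCm38.p6 (5532 and 1993 probe sets with a symbol). Promoters are RefSeq's. Of the calls, 141 in muscle and 79 in adipose had a symbol.

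The rule for named genes took the 12 largest folds per direction with both tissues above their bounds, and the 12 largest against a bound. It added up to 6 called genes per direction and 4 uncalled per list, all isoform genes and markers, and those nearest the thresholds. The text does not give values for all of these, and Pfkm, Pfkl, Actb, Actg1 and Mdh2 are among those left out. Outside this rule, Myh4, Myl2, Myl3, Tnnc1, Capza2, Cycs, Cs, Crat, Slc25a20, Echs1, Abcd2, Abcd3, Hsd17b4, Vldlr, C1qa and C1qc were chosen after their values were seen. The 30 gene lists overlap. The members, the lists and the rules were chosen with earlier results of these data known. The scripts were tested on simulated data. Python 3.11.15, numpy 2.4.6 and pandas 2.3.3 were used. Alternatives covered the fold, the bound, the scaling, probe set design and each chip alone.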

Additional observations from a re-analysis of the deposited data

How the results depend on the processing

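Calls numbered 227 in muscle and 116 in white adipose. In that order they were 753 and 381 at 2-fold, and 111 and 36 at 8-fold. With a floor at the median of the array medians in place of a bound they were 684 and 641, and with the 5th percentile as bound 568 and 271. Using the larger bound of the chip for both arrays gave 147 and 116. Scaling to the 75th percentile gave 181 and 174, quantile normalization 166 and 202, centring above both bounds 149 and 225, and scaling to the spikes, which rests on 4 probe sets per chip, 159 and 226. Without probe sets whose names mark a family or relaxed design, including those shared by several messages, 34 and 3 were left. Chip A alone gave 111 and 59, and chip B alone 116 and 57. Both of the following were chosen after seeing the data: keeping the shared probe sets but not the other special designs gave 152 and 64, and centring above the larger bound gave 206 and 133. Apart from quantile normalization, which moved ratios in both directions, the other scalings moved the ratios towards adipose. For those, more adipose and fewer muscle calls follow from their direction. Why the scalings differ was not tested. A smaller set of probe sets can only lose calls. Without the family, relaxed and shared designs, 15.0% of the muscle calls and 2.59% of the adipose calls were left. Most calls in both directions thus came from probe sets of these designs. Why the shares left differ between the tissues was not tested. No paired analysis was possible because each tissue has 1 array per chip and no replicate numbers. Signal limits the result as well: 9480 probe sets were above the bound in neither tissue, and no ratio can be given for them.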

Other observations

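Both chips carry 15 probe sets under the same name, of which 4 were members on both. Their order between the tissues was the same on each chip. The probe set MURINE_B2_at read 35431 in muscle and 16957 in white adipose on chip A, and 47243 and 24829 on chip B. MURINE_b1_at read 343 and 4421 on chip A, and 599 and 7321 on chip B, a call in adipose on both. P-Select_at read 3661 and 553 on chip A, and 4960 and 512 on chip B, a call in muscle on both. MUR_b2_at read 1772 and 2427 on chip A, and 1902 and 5694 on chip B. None of these names is tied to a gene here.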
